A study of Mus musculus with 405 samples.

Results

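The cerebral cortex is built in layers, and the transcription factors that set the fate of its projection neurons serve as the usual names for those layers. The 8 genes described here were chosen by name: Tbr1, Bcl11b, Fezf2, Foxp2, Cux1, Cux2, Rorb and Mef2c. All 8 were present among the 13304 genes of the expression table of the chemical screen and among the 23893 genes of the count table for the fungicide pyraclostrobin.

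In postmitotic neurons these factors act partly by cross-repression, so that a neuron that keeps one identity loses another. Tbr1, a T-box factor, is needed for corticothalamic neurons of the deepest layer, while Fezf2 and Bcl11b, zinc-finger factors also known as Fezl and Ctip2, act in sequence to specify neurons that project below the cortex. Foxp2, a forkhead factor, marks deep-layer neurons, the cut-homeobox factors Cux1 and Cux2 mark the upper layers, the nuclear receptor Rorb marks the granular layer, and the MADS-box factor Mef2c acts in excitatory neurons of several layers and regulates synapses.

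The cultures were dissociated cortical neurons of E15 embryos from C57BL/6J dams crossed to CAST/EiJ sires (CAST x C57BL6). All groups shared a medium with serum, an inhibitor of mitosis added on a later feed, and exposure on day 7 in vitro for 24 h, and RNA was taken from whole wells, so that glia and other cells that remained contributed to every value. The screen held 49 Vehicle (DMSO) libraries and 344 libraries of 297 chemicals, of which 282 chemicals had 1 library each. Groups used here were topotecan at 0.3 µM (32 libraries), camptothecin at 0.3 µM and irinotecan at 10 µM (1 library each), 6 fungicides of the Qo site of mitochondrial complex III (9 libraries), 4 complex I inhibitors (5 libraries) and 12 pyrethroids (12 libraries). Pyraclostrobin at 0.1 µM and Vehicle had 4 libraries each in the count table, and the first pyraclostrobin library was also the one of the screen. The labels do not say which libraries came from separate cultures, so that p-values measure the spread between libraries, which may be technical. For the target classes the unit was the chemical. The p-values there measure the spread between chemicals, mostly of those outside the class. For the count table the study's description names fewer biological replicates than libraries, so that some of the 4 may share a culture and p-values may be too small.

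Values of the screen are deviations: the log10 RPKM of a gene after quantile normalization, removal of batch effects and centring on the median of that gene by the authors, given below on a log2 scale, where 0 is the median of the gene over libraries. They compare libraries for 1 gene and say nothing of its level. Totals in the count table ranged from 2409623 to 7833440 counts per library. A number in the column names joins each pyraclostrobin library to a Vehicle library and is given here as 1 to 4, and library 1 stood apart in both groups: the summed astrocyte markers were at 1211 CPM (counts scaled to a common total) in Vehicle 1 against 683 to 723 in the other Vehicle libraries, and at 3933 in pyraclostrobin 1 against 1142 to 1321, and the summed interneuron markers were at 721 against 1332 to 1432 and at 192 against 778 to 897. Neuron markers (9 genes) summed to between 10380 and 11010 CPM in the 4 Vehicle libraries, so that the neurons named by the labels were present. Of 6 endothelial and mesenchymal genes, Cldn5 alone had no count in any library.

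Levels can be ordered in the Vehicle libraries of the count table, per kilobase of exon. Exon lengths came from another annotation than the counts, so that the order is approximate. Mef2c was the highest of the 8, at 148 ± 10.4 CPM per kb (mean ± SD, n = 4). Fezf2 followed at 35 ± 1.19, Bcl11b at 31.1 ± 6.95 and Tbr1 at 26.3 ± 3.64 CPM per kb. Fezf2 ranged from 33.6 to 36.5 CPM per kb, overlapping the upper end of the range of Bcl11b (20.8 to 35.5) and above all values of Tbr1 (20.9 to 28.6). Within each Vehicle library Fezf2 was above Bcl11b, and Bcl11b was above Tbr1 except in Vehicle 1. Their order was not tested. Rorb stood at 10.4 ± 3.79, Cux1 at 8.51 ± 0.623 and Cux2 at 6.55 ± 1.54 CPM per kb, and the ranges of these neighbours overlapped (4.77 to 12.8, 7.60 to 9.01 and 4.32 to 7.72). Foxp2 was the lowest, at 1.47 ± 0.268 CPM per kb, with 43 to 179 counts in a library. In mm9 the Foxp2 locus overlaps AC163724.1 on the same strand, and Cux1 and Cux2 overlap the antisense genes Gm16599 and Gm15637. No strand-specific counting is stated, and it would not separate a partner on the same strand. These overlaps are of whole gene spans, and whether any read counted over exons is shared was not tested.

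Topotecan, an inhibitor of topoisomerase I (TOP1) that lowers transcription of long genes, was the positive control of the screen. Rorb, Foxp2, Mef2c, Cux1 and Bcl11b were lower with topotecan than with vehicle, and Tbr1 and Fezf2 were higher. Cux2 did not pass the test. In a model fitted across all genes (limma, adjusted p under 0.05), 5 of 8 layer genes were lower, where 20.9% of all genes were, and 2 of 8 were higher, where 24.9% of all genes were.

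Rorb showed the greatest difference of the 8. Its deviation ran from -1.90 to -0.45 (median -1.0) over the 32 topotecan libraries and from -0.57 to 0.41 (median 0.03) over the 49 Vehicle libraries. The groups barely overlapped: 29 of 32 topotecan libraries lay below every Vehicle library. The difference of means was -1.09 ± 0.0727 (SE; limma, adjusted p = 2.3e-23), a level 0.470 times that of vehicle.

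Mef2c ran from -1.28 to -0.11 (median -0.52) with topotecan and from -0.68 to 0.35 (median 0.06) with vehicle, and 46 of 49 Vehicle libraries lay above every topotecan library. The other 3 Vehicle libraries lay within the topotecan range. The difference was -0.58 ± 0.0438 (adjusted p = 3.2e-20).

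Foxp2 ran from -1.34 to 0.18 (median -0.62) with topotecan and from -0.30 to 0.54 (median 0.17) with vehicle. Of the topotecan libraries, 25 of 32 lay below every Vehicle library, and a few lay within the Vehicle range, which made Foxp2 the most variable of the 8 in this group (SD 0.414). The difference was -0.76 ± 0.0713 (adjusted p = 9.5e-16). Cux1 ran from -0.79 to 0.18 (median -0.39) with topotecan and from -0.54 to 0.56 (median 0.11) with vehicle, with 8 of 32 topotecan libraries below every Vehicle library and a difference of -0.48 ± 0.0520 (adjusted p = 4.8e-13). Its paralog Cux2 ran from -0.80 to 0.49 (median 0.04) with topotecan and from -0.55 to 0.41 (median -0.08) with vehicle. The groups overlapped almost fully, and the difference of 0.07 had a 95% confidence interval of -0.03 to 0.17 (adjusted p = 0.24).

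Tbr1 went the other way. Its deviation ran from -0.37 to 0.67 (median 0.32) with topotecan and from -0.43 to 0.19 (median -0.05) with vehicle, and 23 of 32 topotecan libraries lay above every Vehicle library. The difference was 0.32 ± 0.0390 (adjusted p = 2.5e-11). Fezf2 ran from -0.43 to 0.58 (median -0.01) with topotecan and from -0.76 to 0.22 (median -0.20) with vehicle, so that the groups overlapped widely around a difference of 0.19 ± 0.0551 (adjusted p = 0.0025). Its mean was -0.22 over Vehicle and -0.03 over topotecan libraries, beside -0.12 over all chemicals but the Qo-site fungicides, so that Vehicle itself was low. Bcl11b, which lies downstream of Fezf2 in the specification of these neurons, ran from -0.77 to 0.30 (median -0.09) with topotecan and from -0.21 to 0.33 (median 0.04) with vehicle. The difference of -0.16 ± 0.0355 (adjusted p = 7.3e-05) was opposite in sign to that of Fezf2, and again most libraries of the 2 groups overlapped. A permutation test of each gene by itself (100000 resamples, two-sided) gave p = 1e-05, the smallest it can give, for Rorb, Mef2c, Foxp2, Cux1 and Tbr1, 3e-05 for Bcl11b, 0.00062 for Fezf2 and 0.16 for Cux2.

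**Figure D1:**
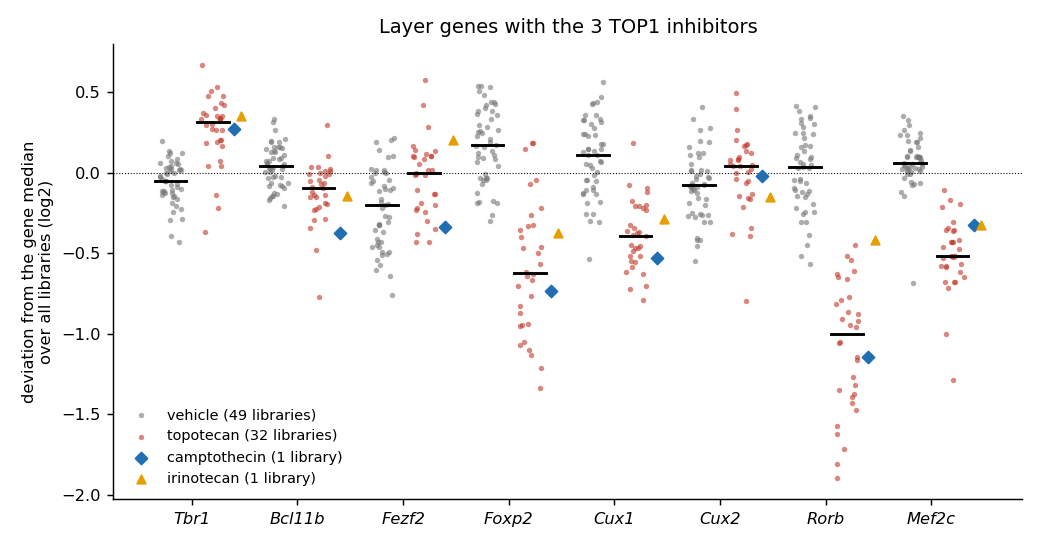
Deviation of each layer gene from its median over all libraries (y axis, log2) in single libraries of vehicle (grey, 49), topotecan (red, 32), camptothecin (blue diamond) and irinotecan (orange triangle), with black bars for group medians. Rorb and Mef2c separated most clearly, Tbr1 rose, and Cux2 overlapped between the groups.

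The related TOP1 inhibitors had 1 library each and were not tested. Camptothecin, at the same 0.3 µM as topotecan, lay within the range of the topotecan libraries for 8 of 8 layer genes. It stood at -1.14 for Rorb, -0.73 for Foxp2, -0.53 for Cux1, -0.38 for Bcl11b, -0.32 for Mef2c and 0.27 for Tbr1. Fezf2 was at -0.34, lower than all but 4 topotecan libraries. Irinotecan, given at 10 µM, stood at -0.42 for Rorb, -0.37 for Foxp2, -0.32 for Mef2c, -0.29 for Cux1 and 0.35 for Tbr1. Doses differ, and no comparison of irinotecan with the others is made.

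Gene length sets the background for these values. In the mm9 annotation the 8 genes run from 3.97 kb (Fezf2), 11.2 kb (Tbr1) and 93.2 kb (Bcl11b) through 164 kb (Mef2c), 181 kb (Rorb), 192 kb (Cux2) and 319 kb (Cux1) to 541 kb (Foxp2). Of 355 genes between 150 and 200 kb, 62.3% were lower with topotecan and 7.89% were higher, with a median difference of -0.20 and quartiles of -0.33 and -0.04. Within that range, Rorb and Mef2c were below the lower quartile and Cux2 was above the upper one. Cux1 was between the quartiles of the 445 genes of 200 to 350 kb (-0.55 and -0.20), and Foxp2 between those of the 352 longer genes (-1.20 and -0.52). Of the 6192 genes up to 25 kb, 32.7% were higher and 8.12% lower, with an upper quartile of 0.19. Tbr1 (0.32) was above this quartile and Fezf2 (0.19) was level with it. Bcl11b was below the lower quartile (-0.08) of the 4264 genes of 25 to 100 kb.

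**Figure D2:**
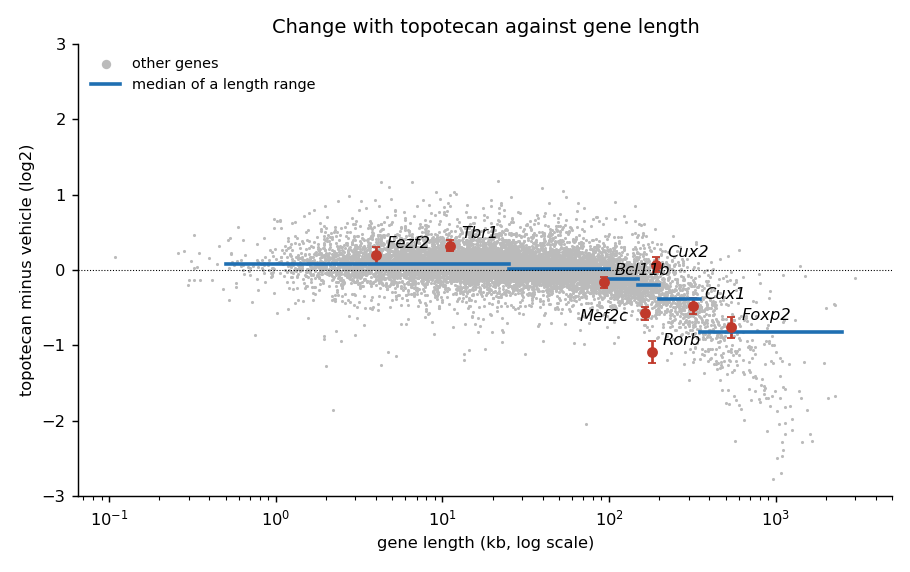
Difference between topotecan and vehicle (y axis, log2) against gene length in mm9 (x axis, kb, log scale) for 12388 genes with an annotated length, with the layer genes in red (bars, 95% confidence intervals) and blue lines at the median of each length range. Rorb and Cux2 are of nearly the same length and lie at -1.09 and 0.07.

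Other genes of the layer lists were also called in both directions. Of 9 upper-layer genes, 6 were lower with topotecan and 1 was higher (median -0.16). Unc5d, a netrin receptor, was at -1.07 ± 0.0571 (adjusted p = 3.9e-29), while Mdga1, an adhesion molecule, was at 0.86 ± 0.0841 (adjusted p = 8.8e-15). Of 14 deep-layer genes, 9 were lower and 2 were higher (median -0.34). Sox5, a repressor of subcerebral fate in deep layers, was at -0.88 ± 0.0523 (adjusted p = 3.4e-26) and Tle4, a corepressor of corticothalamic neurons, at -0.45 ± 0.0485 (adjusted p = 5.0e-13), whereas Crym was at 0.54 ± 0.117 (adjusted p = 8.7e-05). Of 8 progenitor and pan-excitatory genes, 5 were higher (Neurod1, Neurod2, Neurod6, Slc17a6 and Slc17a7) and 2 were lower (Emx1 and Eomes). The median over all genes was 0.03. Markers of other cells also differed between these groups: 7 of 9 neuron markers, 7 of 13 interneuron markers and 5 of 8 astrocyte markers were lower, while the neurofilament gene Nefm (0.34, adjusted p = 5.9e-11) and the astrocyte marker Sox9 (0.16, adjusted p = 0.0095) were higher. The mean deviation of the neuron list ranged from -0.70 to -0.07 with topotecan and from -0.14 to 0.22 with vehicle, and that of the astrocyte list from -0.73 to 0.02 and from -0.67 to 0.49. In bulk RNA, fewer cells of a type and less RNA per cell cannot be told apart, and the part of the marker lists in the result was not tested.

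Fungicides of the Qo site block the step of complex III that takes electrons from ubiquinol. Each chemical was taken as the median of its libraries and the 6 were compared with the 291 other chemicals of the screen. Tbr1, Bcl11b, Fezf2 and Foxp2, the deep-layer factors, were lower, and Cux1, Cux2, Rorb and Mef2c did not pass the test. Thus 4 of 8 layer genes were lower, where 13.6% of all genes were, and 0 of 8 were higher, where 7% of all genes were (limma, adjusted p under 0.05).

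Bcl11b stood at -1.14 with trifloxystrobin (10 µM), -0.88 with pyraclostrobin (0.1 µM), -0.87 with fenamidone (10 µM), -0.21 with famoxadone (10 µM), 0.04 with fluoxastrobin (1 µM) and 0.07 with azoxystrobin (0.1 µM). The first 3 were below all 49 Vehicle libraries, and no other chemical of the screen was as low as trifloxystrobin. The difference from other chemicals was -0.47 ± 0.0649 (adjusted p = 2.5e-10). Tbr1 stood at -0.82 with pyraclostrobin, -0.68 with fenamidone, -0.66 with trifloxystrobin, -0.48 with famoxadone, -0.13 with azoxystrobin and -0.04 with fluoxastrobin. The first 4 of these were below all Vehicle libraries, and the difference was -0.40 ± 0.0637 (adjusted p = 8.0e-08). The SD over the 6 fungicides was 0.527 for Bcl11b and 0.317 for Tbr1, against 0.142 and 0.147 over the 291 other chemicals. The fit pools these spreads, so that SE and p rest mostly on the other chemicals and not on the spread within the class.

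Fezf2 stood at -0.88 with trifloxystrobin, -0.78 with fenamidone, -0.56 with pyraclostrobin, -0.25 with famoxadone, -0.10 with fluoxastrobin and 0.15 with azoxystrobin, and only trifloxystrobin and fenamidone were below all Vehicle libraries. The difference was -0.28 ± 0.0962 (adjusted p = 0.021). It was lost without fenamidone (-0.21, adjusted p = 0.19), pyraclostrobin (-0.25, adjusted p = 0.100) or trifloxystrobin (-0.19, adjusted p = 0.27), and with single libraries set against Vehicle libraries (-0.14, adjusted p = 0.34), where Fezf2 itself was low (mean -0.22 over Vehicle libraries, -0.12 over the other chemicals). Foxp2 stood at -0.61 with trifloxystrobin, -0.53 with pyraclostrobin, -0.51 with fenamidone, -0.12 with famoxadone, 0.04 with fluoxastrobin and 0.22 with azoxystrobin. The first 3 were below all Vehicle libraries. The difference of -0.33 ± 0.123 (adjusted p = 0.041) was lost when famoxadone, fenamidone, pyraclostrobin or trifloxystrobin was left out (adjusted p = 0.055, 0.17, 0.20 and 0.23) and with single libraries in place of medians (adjusted p = 0.17).

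The factors of the upper and granular layers lay within the Vehicle range with all 6 fungicides. Cux1 ran from -0.19 (trifloxystrobin) to 0.20 (azoxystrobin), with a difference of -0.06 and a 95% confidence interval of -0.25 to 0.12 (adjusted p = 0.72). Cux2 ran from -0.40 (trifloxystrobin) to 0.06 (fenamidone), with a difference of -0.14 and an interval of -0.31 to 0.02 (adjusted p = 0.24), and Rorb from -0.32 (famoxadone) to 0.15 (azoxystrobin), with a difference of -0.05 and an interval of -0.26 to 0.15 (adjusted p = 0.80). For Mef2c the difference was -0.12, with an interval of -0.23 to -0.01 (adjusted p = 0.11), and it passed without azoxystrobin (-0.17, adjusted p = 0.029) or fluoxastrobin (-0.17, adjusted p = 0.024) and against Vehicle libraries (-0.16, adjusted p = 0.038). Mef2c was at -0.41 with trifloxystrobin, -0.19 with pyraclostrobin and -0.15 with famoxadone, each above only 1 of 49 Vehicle libraries. With fenamidone (-0.14) 2 Vehicle libraries were lower, and azoxystrobin and fluoxastrobin were at 0.11 and 0.15. Whether the deep-layer factors differed more than the others was not tested.

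**Figure D3:**
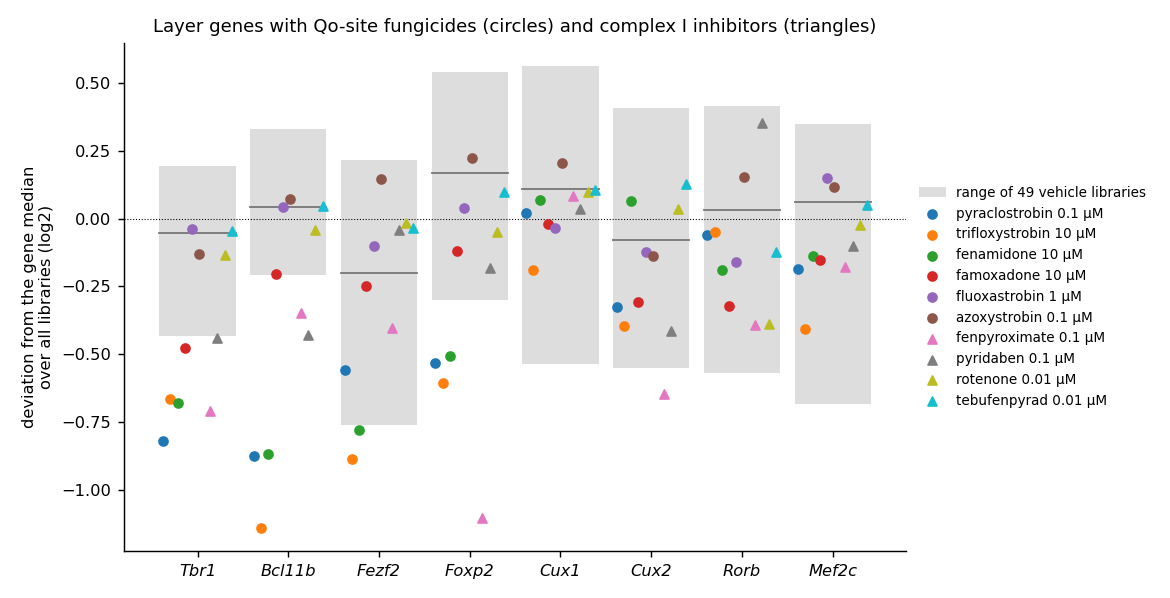
Deviation of each layer gene from its median over all libraries (y axis, log2) with 6 Qo-site fungicides (circles) and 4 complex I inhibitors (triangles), each the median of its libraries, over the range (grey box) and median (grey line) of 49 Vehicle libraries. Trifloxystrobin, pyraclostrobin and fenamidone lie below the box for Tbr1, Bcl11b and Foxp2 and within it for Cux1, Cux2, Rorb and Mef2c. For Mef2c, 1 Vehicle library was lower than trifloxystrobin and pyraclostrobin, and 2 were lower than fenamidone.

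Among strobilurins at the same 0.1 µM, pyraclostrobin (1 library) was at -0.82 for Tbr1 and -0.88 for Bcl11b, whereas the 2 azoxystrobin libraries were at -0.15 and -0.11 for Tbr1 and at -0.02 and 0.16 for Bcl11b. At 10 µM, the 2 fenamidone libraries were at -0.92 and -0.82 for Bcl11b and the 2 famoxadone libraries at -0.23 and -0.18, so that these did not overlap. For Rorb they did (-0.43 and 0.05 against -0.62 and -0.03). With 1 or 2 libraries a chemical, these differences were not tested.

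Neuron markers moved with the deep-layer factors. All 9 of 9 were lower with the Qo-site fungicides (median -0.41), as were 8 of 13 interneuron markers (median -0.77). Higher were 4 of 8 astrocyte markers (median 0.39) and, of 4 mesenchymal genes tested (median 0.98), the 3 genes Acta2, Col1a1 and Col1a2. The median over all genes was -0.00. The mean deviation of the neuron list was -0.67 with trifloxystrobin, -0.66 with pyraclostrobin, -0.65 with fenamidone, -0.48 with famoxadone, -0.10 with fluoxastrobin and 0.03 with azoxystrobin, the same order as for Bcl11b. The part of these markers in the result was not tested. Of 14 other deep-layer genes, 5 were lower and 1 was higher (median -0.14). Sox5 was at -0.44 ± 0.0909 (adjusted p = 3.9e-05), Tle4 at -0.32 ± 0.0858 (adjusted p = 0.0023), and Crim1, a transmembrane protein of corticospinal neurons, at 0.37 ± 0.0684 (adjusted p = 2.9e-06). The other 3 that were lower were Nr4a2, Hs3st4 and Foxp1. Of 9 other upper-layer genes, 2 were lower (Pou3f1 and Mdga1) and 1 was higher (Pou3f3), with a median of 0.02, and of 8 progenitor and pan-excitatory genes 3 were lower (Neurod2, Neurod6 and the vesicular glutamate transporter Slc17a7; median -0.15).

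Tbr1, Bcl11b and Fezf2 fell together with these fungicides, so the promoters of these 3 are shown, from 250 bases before to 50 bases after the transcription start in RefSeq on GRCm38.p6, 5′ to 3′ on the strand of the gene. Capitals mark matches to the letters of core promoter motifs, which were searched on both strands. These were GGGCGG (a GC box, in 35.7% of 32851 promoters of the same length), the box named CCAAT after its letters (in 37.4%) and TATAAA, the TATA box (in 13.6%). The motifs do not overlap here. The sequences lie at chr2:61804203-61804502 (plus strand), chr12:108003365-108003664 (minus strand) and chr14:12345816-12346115 (minus strand).
Tbr1 promoter: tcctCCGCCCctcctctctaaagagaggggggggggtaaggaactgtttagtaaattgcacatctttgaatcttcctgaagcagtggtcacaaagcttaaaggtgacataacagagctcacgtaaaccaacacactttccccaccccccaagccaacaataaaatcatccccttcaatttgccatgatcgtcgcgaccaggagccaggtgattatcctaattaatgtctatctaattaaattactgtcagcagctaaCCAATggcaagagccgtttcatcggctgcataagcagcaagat
Bcl11b promoter: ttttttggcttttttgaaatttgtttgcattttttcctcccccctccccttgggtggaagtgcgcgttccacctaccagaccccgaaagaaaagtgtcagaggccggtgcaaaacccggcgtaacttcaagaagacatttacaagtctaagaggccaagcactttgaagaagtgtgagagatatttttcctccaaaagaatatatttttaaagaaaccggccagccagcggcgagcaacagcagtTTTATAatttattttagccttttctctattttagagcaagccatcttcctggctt
Fezf2 promoter: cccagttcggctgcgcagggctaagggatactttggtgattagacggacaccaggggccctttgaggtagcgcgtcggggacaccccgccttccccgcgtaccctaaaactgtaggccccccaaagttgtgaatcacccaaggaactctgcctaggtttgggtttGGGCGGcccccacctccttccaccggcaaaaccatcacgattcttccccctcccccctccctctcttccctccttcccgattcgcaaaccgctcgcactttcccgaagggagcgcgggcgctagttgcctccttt

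The promoters of Tbr1 and Fezf2 each held 1 GC box, Tbr1 on the opposite strand near the far end of the window and Fezf2 at position -85 from the start, and the promoter of Tbr1 also held a CCAAT box just after the start. The promoter of Bcl11b held only a match to the letters of the TATA box, on the opposite strand and across the start. Whether any of these matches acts as a promoter motif was not tested. None of these motifs was in all 3 promoters. Their GC content was 46%, 43% and 61.3%, beside a median of 52.7% over all promoters. Of the other members, Cux1 had 1 entry, Cux2 and Rorb 2 each and Mef2c 3, and Foxp2 had none.

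Complex I inhibitors block the entry of electrons from NADH into the same chain. With rotenone, fenpyroximate, pyridaben and tebufenpyrad, 1 of 8 layer genes (Tbr1) was lower than with the 293 other chemicals, where 3.98% of all genes were (limma, adjusted p under 0.05). Tbr1 stood at -0.71 with fenpyroximate (0.1 µM), -0.44 with pyridaben (0.1 µM), -0.14 with rotenone (0.01 µM) and -0.05 with tebufenpyrad (0.01 µM). The 2 given at 0.1 µM were below all Vehicle libraries and the 2 given at 0.01 µM were within their range, and the 2 rotenone libraries spread from -0.42 to 0.15. The difference of -0.26 ± 0.0813 (adjusted p = 0.043) was lost without fenpyroximate, when 4 genes of the whole table were called against 605 with it, without pyridaben (295 genes), and with single libraries in place of medians. The SD of Tbr1 was 0.302 over the 4 inhibitors and 0.157 over the 293 other chemicals, and the fit pools the 2.

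With fenpyroximate, Foxp2 was at -1.10, the lowest value of any chemical, Cux2 at -0.65, below all Vehicle libraries, and Bcl11b at -0.35. Pyridaben was at -0.43 for Bcl11b, -0.41 for Cux2 and 0.35 for Rorb. As a class, Bcl11b differed by -0.16 (interval -0.33 to 0.01, adjusted p = 0.36), Foxp2 by -0.39 (interval -0.68 to -0.09, adjusted p = 0.14), Cux2 by -0.16 (interval -0.36 to 0.04, adjusted p = 0.49) and Rorb by -0.09 (interval -0.34 to 0.17, adjusted p = 0.84). The differences of Fezf2, Cux1 and Mef2c were 0.00, 0.01 and -0.08. Without fenpyroximate, those of Foxp2, Cux2 and Rorb went to -0.12, -0.022 and -0.0024, and without tebufenpyrad Foxp2 passed (-0.52, adjusted p = 0.040). The classes were each set against the chemicals outside them and so share most of their comparison group. Of the marker lists, 6 of 9 neuron markers and 6 of 13 interneuron markers were lower here too, with mean deviations of the neuron list of -0.60 for fenpyroximate, -0.44 for pyridaben, -0.18 for rotenone and 0.01 for tebufenpyrad. Acta2, a smooth muscle actin, was higher (1.22 ± 0.301, adjusted p = 0.0043) and was the only one called of 4 mesenchymal genes tested. With fenpyroximate the mean deviation of that list was 1.76, above the Vehicle maximum of 0.97, and that of 5 microglia markers was 0.82, above the Vehicle maximum of 0.53. Their part in the result was not tested. Against Vehicle libraries in place of the other chemicals, Bcl11b (-0.21, adjusted p = 0.049) and Foxp2 (-0.43, adjusted p = 0.013) passed beside Tbr1. No upper-layer and no pan-excitatory gene was called, and of the deep-layer genes only Crim1 was called, as higher.

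Pyrethroids keep voltage-gated sodium channels open and so raise neuronal firing. None of the 8 layer genes passed the test with 12 pyrethroids against 285 other chemicals, where 0.451% of all genes did (60 of 13304; limma, adjusted p under 0.05). Differences ran from -0.10 for Bcl11b (interval -0.20 to -0.00, adjusted p = 0.41) to 0.03 for Cux1 (interval -0.10 to 0.16, adjusted p = 0.92), and that of Mef2c, whose protein is regulated by calcium, was -0.05 (interval -0.13 to 0.02, adjusted p = 0.65). Against Vehicle libraries in place of the other chemicals, Bcl11b passed (-0.17, adjusted p = 0.026). The 12 were not alike: Rorb ran from -0.57 with bifenthrin to 0.67 with fenpropathrin, both at 10 µM, the latter the highest value of Rorb with any chemical.

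The count table gave a second, replicated view of pyraclostrobin at 0.1 µM. Rorb was lower than with vehicle and was the only layer gene past the threshold in the fit without a term for the library number (edgeR quasi-likelihood test, adjusted p under 0.01). Thus 1 of 8 layer genes was lower, where 9.22% of all genes were, and 0 of 8 were higher, where 12.1% were. Bcl11b, Mef2c, Tbr1 and Fezf2 had adjusted p between 0.012 and 0.049 and were below vehicle, while Cux1 and Cux2 were close to it. With the library number as a block, Tbr1 and Bcl11b passed the threshold as well, and those values are given in the last section.

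Rorb was at 52.8, 141, 126 and 140 CPM in Vehicle 1 to 4 and at 48.7, 41.3, 31.2 and 46.6 CPM in pyraclostrobin 1 to 4. The groups did not overlap, and Vehicle 1 was far below the other Vehicle libraries and close to the pyraclostrobin ones. The log2 difference was -1.46 ± 0.280 (edgeR, adjusted p = 0.0022), a level 0.364 times that of vehicle. By number, the log2 ratio was -0.12 for library 1, where both values were low, and -1.77, -2.02 and -1.58 for libraries 2, 3 and 4. Without library 1 of both groups, an alternative chosen after seeing the data, the difference was -1.77, and without pyraclostrobin 3 it was -1.40 and missed the threshold (adjusted p = 0.0103). The screen, which holds pyraclostrobin 1, gave -0.06 for Rorb.

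Bcl11b was at 168, 288, 275 and 278 CPM with vehicle and at 82.8, 158, 146 and 167 CPM with pyraclostrobin. The groups did not overlap, although pyraclostrobin 4 was just below Vehicle 1, and the ratio was between -1.02 and -0.74 on the log2 scale for each of the 4 numbers. The difference was -0.87 ± 0.228 (edgeR, adjusted p = 0.012). It passed 0.01 without Vehicle 1 (-1.02, adjusted p = 0.00091) and without library 1 of both groups (-0.83, adjusted p = 2.6e-08). Tbr1 was at 115, 149, 157 and 157 CPM with vehicle and at 55.3, 112, 104 and 110 CPM with pyraclostrobin, again without overlap, and lower in the pyraclostrobin library of each number (log2 ratios -1.05, -0.40, -0.59 and -0.51). The difference was -0.60 ± 0.208 (adjusted p = 0.044), or -0.51 without library 1 of both groups (adjusted p = 2.2e-05).

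Fezf2 was at 77.4, 84.1, 81.0 and 80.1 CPM with vehicle, a narrow range, and at 42.4, 59.0, 51.8 and 78.2 CPM with pyraclostrobin. Only pyraclostrobin 4 reached the Vehicle range, although the pyraclostrobin library was below the Vehicle library of each number (log2 ratios -0.87, -0.51, -0.65 and -0.035), and without it the difference went from -0.48 ± 0.171 (adjusted p = 0.049) to -0.71 (adjusted p = 0.0058). Foxp2 was at 15.3, 20.2, 24.1 and 19.4 CPM with vehicle and at 7.06, 13.2, 15.2 and 15.4 CPM with pyraclostrobin, where pyraclostrobin 4 was level with Vehicle 1 and each log2 ratio by number was negative (-1.12, -0.62, -0.66 and -0.33). The difference was -0.65 ± 0.250 (adjusted p = 0.065), and pyraclostrobin 1 had only 18 counts. Mef2c was at 1003, 1191, 1093 and 1102 CPM with vehicle and at 1022, 766, 696 and 829 CPM with pyraclostrobin. Pyraclostrobin 1 alone was within the Vehicle range, and without it the difference went from -0.41 ± 0.126 (adjusted p = 0.028) to -0.58 (adjusted p = 0.0028).

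Cux1 was at 67.1, 58.0, 68.7 and 65.9 CPM with vehicle and at 55.3, 78.5, 74.2 and 60.8 CPM with pyraclostrobin, with libraries of the 2 groups interleaved. The difference was 0.05 with a 95% confidence interval of -0.26 to 0.36 (edgeR, adjusted p = 0.82). Cux2 was at 34.6, 54.5, 59.0 and 61.8 CPM with vehicle and at 37.3, 53.0, 53.3 and 52.9 CPM with pyraclostrobin. Here library 1 was the lowest of each group, and the difference was -0.11 with an interval of -0.54 to 0.32 (adjusted p = 0.72). All 4 pyraclostrobin libraries were below all 4 Vehicle libraries for 3 of 8 layer genes (Tbr1, Bcl11b and Rorb) and for 16.9% of the genes tested. For these 3 the exact permutation test (two-sided) gave p = 0.029, the smallest that 4 against 4 allows. It gave 0.057 for Fezf2, Foxp2 and Mef2c, 0.57 for Cux2 and 0.80 for Cux1.

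**Figure D4:**
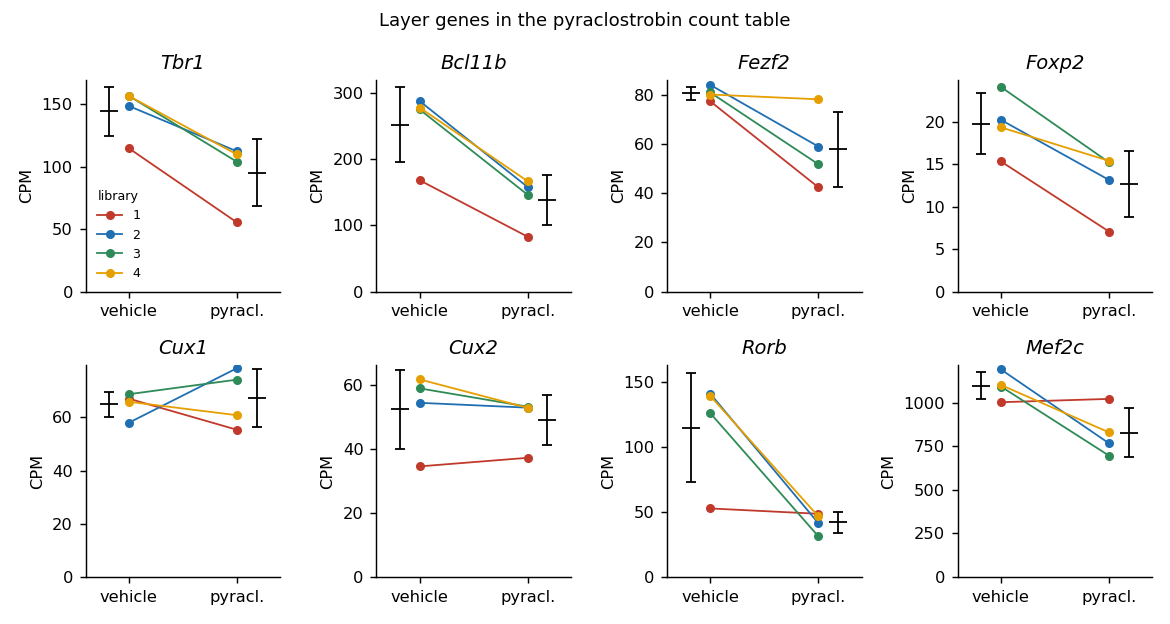
CPM of each layer gene (y axes, from 0) in 4 Vehicle and 4 pyraclostrobin libraries, joined and coloured by library number, with black bars for mean ± SD. For Rorb the red line (library 1) is low and flat while the other 3 fall, and for Cux1 the lines cross.

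Marker lists moved with pyraclostrobin as well. All 9 of 9 neuron markers were lower (median -0.98), and their sum was at 5192 to 6327 CPM against 10380 to 11010 with vehicle. All 7 of 7 microglia markers tested were higher (median 2.03; sums of 104 to 188 against 28.6 to 41.8 CPM), as were 4 of 4 mesenchymal genes tested (median 2.57; sums of 731 to 1092 against 49 to 125 CPM) and 2 of 8 astrocyte markers (median 1.87; sums of 1142 to 3933 against 683 to 1211 CPM). These values stand beside each difference of a layer gene, and their part in the result was not tested. Of 14 other deep-layer genes, 4 were lower (Hs3st4 at -1.28 ± 0.155, Sox5 at -1.15 ± 0.196, Tle4 at -0.99 ± 0.150 and Foxp1 at -0.68 ± 0.153; adjusted p = 0.00015, 0.0011, 0.00055 and 0.0052) and Crim1 was higher, at 1.13 ± 0.152 (edgeR, adjusted p = 0.00028). The median of this list was -0.73, beside -0.00 over all genes. Of 9 upper-layer genes, only Pou3f1, a POU-domain factor, was called, at -0.90 ± 0.141 (adjusted p = 0.00067), and the median was -0.02. Slc17a7 was at -1.58 ± 0.166 (adjusted p = 7.1e-05) and Emx1 at -0.78 ± 0.174 (adjusted p = 0.0053) among 8 progenitor and pan-excitatory genes.

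Across all 297 chemicals, the lowest values of the 4 deep-layer factors fell on the respiratory chain inhibitors above, and their highest values on other chemicals. For Fezf2 the next lowest value, with diethylhexyl phthalate (-0.86), was close to the lowest (-0.88). The lowest value was with pyraclostrobin for Tbr1 (-0.82), with trifloxystrobin for Bcl11b (-1.14) and Fezf2 (-0.88), with fenpyroximate for Foxp2 (-1.10), with camptothecin for Rorb (-1.14) and with topotecan for Mef2c (-0.52). It was with trifloxysulfuron-sodium, a herbicide at 10 µM, for Cux1 (-0.57) and with dimethomorph, a fungicide at 10 µM, for Cux2 (-0.88). The highest values were with sethoxydim for Tbr1 (0.36), Methanone for Bcl11b (0.35), difenzoquat metilsulfate for Fezf2 (0.52), azamethiphos for Foxp2 (0.84), chlorethoxyfos for Cux2 (0.47), fenpropathrin for Rorb (0.67) and quizalofop-ethyl for Mef2c (0.41). Cux1 reached 1.43 in the single library of thiobencarb (10 µM), far above its next highest value of 0.61 with cyproconazole and above the Vehicle maximum of 0.56. Most of these chemicals had 1 library, and no test was made of an extreme.

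The members differed in how often single chemicals left the Vehicle range. Of 282 chemicals with 1 library, 31 were below it and 12 above it for Foxp2, 24 below and 1 above for Bcl11b, and 3 below and 22 above for Fezf2, against medians over all genes of 5 below and 4 above. The numbers were 8 and 8 for Tbr1, 7 and 9 for Rorb, 5 and 1 for Cux2, 1 and 5 for Cux1 and 0 and 1 for Mef2c. The Vehicle range of Mef2c reached down to -0.68. The median of Vehicle libraries was 0.17 for Foxp2, 0.04 for Bcl11b and -0.20 for Fezf2. Over all chemicals the medians were 0.09, -0.02 and -0.11. The part of these offsets of Vehicle in the numbers below and above its range was not tested.

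In the Vehicle (DMSO) cultures few pairs of members passed a test of correlation. Batch effects of culture and sequencing had been removed by the authors, so that any covariation taken out with them is not seen. Over the 49 Vehicle libraries, 1 of 28 pairs passed after adjustment over the pairs. Tbr1 and Bcl11b had a Spearman rho of 0.44 (permutation p = 0.0015, adjusted p = 0.043) and a Pearson r of 0.30 (permutation p = 0.039, adjusted p = 0.22), which was 0.52 without the 2 libraries farthest from the median of Tbr1. Bcl11b and Fezf2 had a rho of 0.39 (permutation p = 0.0051, adjusted p = 0.072; r 0.37, permutation p = 0.0092, adjusted p = 0.091, and 0.42 without 2 libraries). Rorb and Mef2c had a rho of 0.35 (permutation p = 0.015, adjusted p = 0.14; r 0.41, permutation p = 0.0023, adjusted p = 0.066), and r fell to 0.21 without 2 libraries, so that it rests in part on them. Bcl11b and Cux2 had a rho of 0.32 (permutation p = 0.025, adjusted p = 0.18; r 0.27, permutation p = 0.064, adjusted p = 0.27, and 0.32 without 2 libraries). Bcl11b and Mef2c had an r of -0.36 (permutation p = 0.0098, adjusted p = 0.091, and -0.27 without 2 libraries) beside a rho of -0.20 (permutation p = 0.17, adjusted p = 0.40). For Tbr1 and Mef2c, rho was -0.31 (permutation p = 0.034, adjusted p = 0.19; r -0.36, permutation p = 0.014, adjusted p = 0.095, and -0.29 without 2 libraries).

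Over the 294 chemicals other than TOP1 inhibitors, given as a description, the highest rho was 0.42 for Bcl11b and Mef2c, followed by 0.39 for Rorb and Mef2c and 0.37 for Tbr1 and Bcl11b. Tbr1 and Mef2c, negative in vehicle, stood at 0.26, and Bcl11b and Mef2c were at -0.20 in vehicle. Cux1 and Cux2 were at 0.05, and the other pairs with Cux1 were lower. The chemicals share a normalization, and most were sequenced once.

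**Figure D5:**
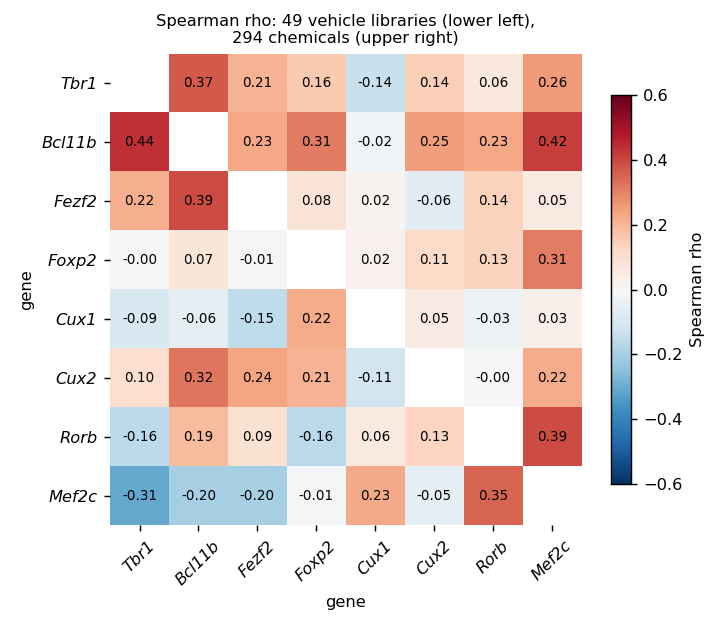
Spearman rho of each pair of layer genes over 49 Vehicle libraries (below the diagonal) and over 294 chemicals (above it), on a colour scale from -0.6 to 0.6. Tbr1 and Bcl11b are at 0.44 and 0.37, and Tbr1 and Mef2c change sign across the diagonal, from -0.31 to 0.26.

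The genes most like each member were taken by rho over the same 294 chemicals, where the 99th percentile over all genes ran from 0.14 (Cux1) to 0.49 (Mef2c). Mef2c was most like Grm5, the metabotropic glutamate receptor (0.72, and 0.54 over Vehicle libraries), and C77370 (0.70). Bcl11b was most like Ppm1e, a protein phosphatase (0.65), and Gas7 (0.64), and Rorb like A830018L16Rik (0.63) and Plcxd2 (0.62, and 0.72 over Vehicle libraries). Tbr1 was most like Ywhag, a 14-3-3 protein (0.51), and Cdk5r1, the activator of the kinase Cdk5 (0.47). Sobp and Bcl7a came first for Cux2 (0.41 and 0.38), B3galt2 and Glra2, a glycine receptor subunit, for Fezf2 (0.41 and 0.39), Camta1 and 9330182L06Rik for Foxp2 (0.40 and 0.39), and Ubl7 and Usp15 for Cux1 (0.27 and 0.24). Over Vehicle libraries, rho with the same member was 0.52 for C77370, 0.39 for Ppm1e, 0.20 for Gas7 and 0.55 for A830018L16Rik. It was 0.36 for Ywhag, 0.44 for Cdk5r1, 0.50 for Ubl7 and 0.47 for Usp15. Lower values were -0.02 for Sobp, -0.04 for 9330182L06Rik, 0.11 for Bcl7a, 0.13 for Glra2 and 0.20 for B3galt2 and Camta1. Without the 10 inhibitors of complex I and the Qo site the values over chemicals changed by at most 0.04.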

How the data were processed

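RNA of whole wells was sequenced as polyadenylated RNA (TruSeq). Per the methods of the authors, reads passed TagDust, went to mm9 by TopHat, lost those on ribosomal RNA genes and were counted over RefSeq exons by gene symbol. The deposited count values for pyraclostrobin were not normalized. For the screen, the authors deposited log10 RPKM values after a filter on detection and gene length, quantile normalization, median-centring per gene and a mixed model to take out batches of culture and sequencing, so that depth of the screen libraries is unknown. These were converted to log2. Another count table, for sulforaphane before fenamidone, was not analysed here, because its 6 columns share a name. Those 6 columns of per-sample values were not used.

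Libraries were grouped by their labels, and columns of the count table whose names give only a group were taken as replicates of that group. The screen was fitted with limma 3.58.1 (R 4.3.3; eBayes with a trend) over 13304 genes, on libraries for topotecan against vehicle and on medians per chemical for the target classes (adjusted p under 0.05). Counts were fitted with the quasi-likelihood test of edgeR 4.0.16 (TMM; 12324 genes that reached 10 counts in 4 or more libraries; adjusted p under 0.01), with DESeq2 1.42.0 as an alternative. All adjusted p are Benjamini-Hochberg values over all genes tested, or over 28 pairs of members for correlations, and all tests were two-sided. Scripts were tested on simulated data. Counts were scaled to CPM by the total of a library for marker sums and by the TMM library size for single genes. Gene lengths came from GENCODE vM1 on mm9 (12388 genes of the screen matched), and promoters from RefSeq on GRCm38.p6.

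The members, lists and target classes were chosen with earlier results of these data known. Named were the 8 members, called genes of the layer lists, for each member the 2 genes of highest rho over 294 chemicals, and the chemicals with its highest and lowest value. Single members, markers and chemicals named with a class were given because they belong to it. One called gene of the layer lists is not reported here. Alternatives were other thresholds, gene filters, variance models, comparison groups, normalizations and libraries left out.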

Additional observations from a re-analysis of the deposited data

Results flagged for a closer look

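Single values far from the rest of a group of 4 to 10 were looked for in 40 groups of values of the members, by the gap to the nearest value as a share of the range, and 5 were found (chance gives about 1 in 20). In the pyraclostrobin group of the count table, library 1 was at 5.80 log2 CPM for Tbr1, where the nearest was at 6.71, and at 5.24 for Cux2, where the nearest was at 5.74. In the Vehicle group, library 1 was at 7.40 log2 CPM for Bcl11b, where the nearest was at 8.11, and at 5.74 for Rorb, where the nearest was at 6.99. These 4 values belong to library 1 of each group, which share a number in their column names. Among the 4 complex I inhibitors, fenpyroximate was at -0.40 for Fezf2, where the nearest was at -0.04.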

How the results depend on the processing

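Precision rests on single libraries for most chemicals and on 4 libraries a group for counts. Of results for single members under an alternative, 348 kept direction and side of the threshold, 17 lost it, 22 gained it and 21 changed sign, the last for differences that did not pass. Other thresholds, the limit to variable genes and the fit without a variance trend leave a difference as it is. They can move a result only across the threshold, so that its direction was fixed in advance. All alternatives for topotecan were of these kinds.

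With only the 5121 variable genes, of which 2 are members, topotecan called 2 members and 1788 genes (7 and 6090 with all genes), Qo-site fungicides 0 and 467 (4 and 2736), complex I inhibitors 0 and 53 (1 and 605) and pyrethroids 10 genes (60). At a threshold of 0.01, counts were 2 members for Qo-site fungicides, 0 members and 281 genes for complex I inhibitors and 3 genes for pyrethroids. With single libraries, complex I inhibitors called 0 members, and differences that had not passed changed sign for Qo-site fungicides (Cux1 0.0039, Rorb 0.039) and pyrethroids (Tbr1 -0.017). Against Vehicle libraries, complex I inhibitors called 3 members and 1324 genes and pyrethroids 1 and 469, and signs changed for Cux1 (-0.0074, complex I) and for Tbr1 (-0.0058), Fezf2 (0.078) and Rorb (-0.058) with pyrethroids. The cause was not tested.

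With each chemical left out in turn, members called ran from 2 to 5 for Qo-site fungicides (genes 1751 to 3238), from 0 to 2 for complex I inhibitors (genes 4 to 1019) and stayed at 0 for pyrethroids (genes 1 to 219). Differences ran from -0.034 to 0.094 for Fezf2 with complex I inhibitors, and with pyrethroids from -0.011 to 0.048 for Tbr1, from -0.056 to 0.031 for Fezf2, from -0.060 to 0.053 for Rorb and from -0.00038 to 0.057 for Cux1.

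For pyraclostrobin counts (1 member, 2631 genes), a threshold of 0.05 called 5 members and 4301 genes, no filter on low counts 2 members, with a median shift of -0.10 over shared genes and Cux1 at -0.050, and DESeq2 2 members. Without library 1 of both groups, chosen after seeing the data, 4 members and 4874 genes were called. With single libraries left out, members ran from 0 (without pyraclostrobin 3) to 3 (without Vehicle 1), genes from 1699 (without Vehicle 3) to 4136 (without Vehicle 1) and Cux1 from -0.085 to 0.077. With the replicate number as a block, 3 members (Tbr1 at -0.63, Bcl11b at -0.88 and Rorb at -1.40; adjusted p = 0.0040, 0.00017 and 0.0030) and 3135 genes were called. Deviations of same-numbered libraries correlated at 0.38, 0.10, -0.03 and 0.16. Across numbers, pairs with library 1 of either group were at -0.31 to -0.02, and pairs among libraries 2 to 4 were at 0.01 to 0.22. The labels do not say what the number marks, so that the numbers were not taken to pair libraries. The study calls its vehicle controls matched without saying how. Of pairs of members, 16 passed over 294 chemicals (1 of 28 in vehicle). Alternatives for sulforaphane before fenamidone were not run.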
